A study of Mus musculus with 30 samples.

Results

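Chromatin immunoprecipitation sequencing (ChIP-seq) peaks of E2A were compared between mouse pre-pro-B cells that received a tamoxifen-activated E2A protein, E47-ER, and pre-pro-B cells with their own E2A. The sites are every peak in either of these 2 lists, 19913 in all (15384 with E47-ER after 6 h of tamoxifen and 4529 with endogenous E2A), out of 323966 peaks in the 24 peak lists of the series. A site counted as shared where peaks of both lists had at least 1 bp in common, and as found only with E47-ER or only with endogenous E2A where they did not. Peaks near Tcf3, the gene that encodes E2A, were left out, which removed 2 peaks from each list, because the introduced construct holds sequence of that gene. All cells were of strain C57BL/6, and the pre-pro-B cells of either genotype were kept on S17 stroma in medium with IL7, SCF and FLT3 ligand. E47-ER was delivered to E2A-/- cells by a retrovirus that encoded full-length E2A fused to the ligand-binding domain of the estrogen receptor, together with human CD25. After 21 h in culture, tamoxifen was given at 1 µM for 6 h, and cells with human CD25 were enriched on magnetic columns. The cells with endogenous E2A were EBF-/-, carried no transgene, and have no infection, tamoxifen or enrichment step in their labels. Both libraries were made with the same E2A antibody. Each condition is 1 library, so genotype, construct, dose of the protein and handling cannot be told apart, and no test between conditions was possible. The other libraries used here came from E2A-/- pre-pro-B cells with E47-ER for 1 h or 6 h or with bHLH-ER (an E2A fusion without both transactivation domains) for 6 h, from A12 cells (E2A-/- cells labelled as double-positive T cells) with E47-ER or bHLH-ER for 6 h, from RAG1-/- pro-B cells without a transgene, and from a mock immunoprecipitation of wild-type lymphoid cells.

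E2A belongs to the E proteins, basic helix-loop-helix transcription factors that bind a short DNA motif called the E-box as dimers. E47 and E12 are splice forms of its gene, and mice without E2A or without EBF1 form no B cells past an early progenitor. Id proteins such as Id3 pair with E proteins and keep them from DNA. Methylation of histone H3 at lysine 4 marks regulatory DNA, with H3K4me3 mostly at active promoters and H3K4me1 and H3K4me2 also at enhancers. Acetylation of lysines 9 and 14 (H3K9/14ac) accompanies activity, and H3K27me3 accompanies Polycomb repression.

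All peaks of both E2A lists were 200 bp wide. The lists give a score per peak, the authors' own value, used here only to rank peaks within a list. Its lowest value was 6 in the E47-ER list and 11 in the endogenous list, and the lists carry no read counts, so sequencing depth is unknown. The intervals given below are 95% exact binomial intervals for shares, and Newcombe intervals for differences of shares, and cover counting error only. On arrays of untreated cells, 2 samples per genotype, the brighter Tcf3 probe read 10.80 and 9.44 in E2A-/- and 13.42 and 13.38 in EBF-/- cells (log2 intensity after normalization). The second Tcf3 probe differed less, with 10.45 and 10.35 in E2A-/- and 10.79 and 11.12 in EBF-/- samples. In these bulk samples, fewer cells of a type and less RNA per cell cannot be told apart. The brighter Ebf1 probe was at 6.96 and 5.36 in E2A-/-, where only the first was well above background, and at 10.86 and 10.90 in EBF-/- samples, while the other Ebf1 probe was not well above background in any of these 4 samples. The files do not say whether either probe lies in the deleted part of its gene, so these levels do not check the labels. Of the markers of early lymphoid progenitors, Flt3 and Kit were well above background in all 4 samples. Il7r read 11.58 and 11.58 in E2A-/- and 13.21 and 13.14 in EBF-/- samples. However, 1 of 2 E2A-/- samples had more RNA of Igll1, a surrogate light chain gene of later B-lineage cells, and of Vpreb1 and Cd79a. In that sample, which was hybridised on the same array as a RAG1-/- sample, the brighter Igll1 probe was at 11.15 against 4.24 in the other E2A-/- sample. Vpreb1 was at 12.13 against 9.04 and Cd79a at 5.64 against 3.15. In EBF-/- samples Vpreb1 read 9.14 and 9.02, and no probe of Cd79a was well above background. The part of this difference between the E2A-/- samples in the results below was not tested.

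Of the 15384 E47-ER sites, 2211 were shared, which is 14.4% (interval 13.8 to 14.9%). The same 2211 sites were 48.8% of the endogenous list (47.4 to 50.3%). Thus 13173 sites were found only with E47-ER and 2318 only with endogenous E2A. Centres of shared peaks lay close together, at a median of 27 bp, and 73.0% lay within 50 bp. Few sites sat just outside the overlap rule: 168 E47-ER-only sites (1.28%) and 164 endogenous-only sites (7.08%) had a centre of the other list 200 to 500 bp away. In contrast, 6585 E47-ER-only sites (50.0%) and 809 endogenous-only sites (34.9%) had no site of the other list within 50 kb on their chromosome. With only as many top-scoring E47-ER peaks as the endogenous list holds, 28.4% of either list was shared.

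Sharing was more frequent among high-scoring peaks in both lists. In the E47-ER list the shared part was 6.18% (5.55 to 6.86%) of 5372 peaks with scores of 6 to 7, 23.8% (21.7 to 26.0%) at scores of 15 to 19 and 67.4% (58.7 to 75.3%) of 132 peaks at 40 or above. In the endogenous list it was 33.3% (31.0 to 35.7%) of 1574 peaks with scores of 11 to 12, 70.5% (66.9 to 74.0%) at 20 to 29 and 78.9% (71.9 to 84.8%) of 166 peaks at 40 or above. Of the 100 top-scoring peaks, 68 of the E47-ER list and 80 of the endogenous list were shared. Across the 2211 shared sites, the scores in both lists had a Spearman correlation of 0.331, as a description over sites that share libraries.

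**Figure D1:**
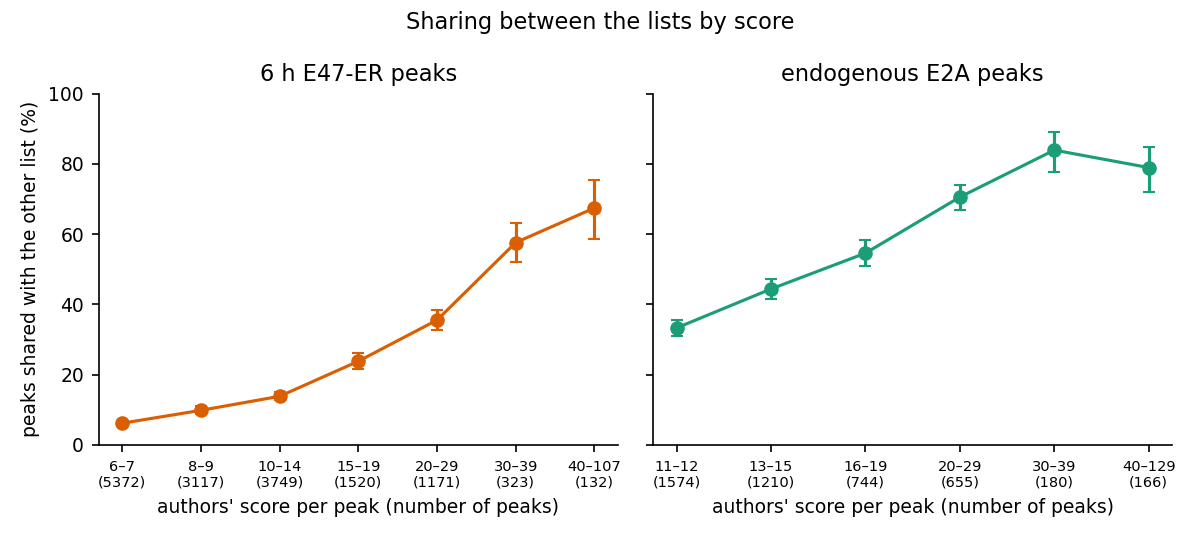
Share of peaks (%, y axis) of the 6 h E47-ER list (left) and the endogenous E2A list (right) that overlap a peak of the other list, by the authors' score per peak (x axis, number of peaks in brackets). Points are shares and bars 95% exact binomial intervals; the share goes from 6.18% to 67.4% on the left and from 33.3% to 78.9% on the right, with the highest value there, 83.9%, in the band from 30 to 39.

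The E47-ER-only sites with the highest scores are given with the shares over all E47-ER-only sites beside their counts. Among the 10 highest within 50 kb of an array gene's probe, 9 had a peak of the 1 h E47-ER list within 500 bp of their centre (82.6% of all E47-ER-only sites), and 9 a peak of the A12 list (46.6%). A peak of endogenous E2A in RAG1-/- cells was present at 2 (15.99% of all), and 7 had none of the 5 marks in EBF-/- cells (70.5% of all). The site near Rbm38, which encodes an RNA-binding protein, lay at chr2:172676574-172676773 (build mm8, as all coordinates here) with a score of 69, 0.444 kb from the probe. It had no mark in EBF-/- cells and peaks in all 3 other E2A lists. The site near Tulp4 (chr17:6208227-6208426, score 67) also lacked marks, as did that near Tepsin (chr11:119909258-119909457, score 60), whose product binds the AP-4 coat complex. The site near Deaf1, which encodes a transcription factor, had H3K4me1 and H3K4me2 (chr7:141178260-141178459, score 65). The site nearest to Frg1 had H3K4me2, H3K4me3 and acetylation (chr8:42873279-42873478, score 57). A further 3 of the 10, at scores of 107, 79 and 64, fell in one short stretch of chromosome 11 nearest to LOC673182 and Pisd-ps3. The last of these and the site at LOC673433 (score 104) had a peak of the mock immunoprecipitation within 500 bp. The tenth site lay near Fam178b (chr1:36524696-36524895, score 54) and had H3K4me2.

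The highest-scoring shared sites were near genes of varied function, and all 10 had an E2A peak in RAG1-/- pro-B cells (61.5% of all shared sites). A 1 h E47-ER peak lay within 500 bp of 6 of them (95.5% of all) and an A12 peak of 8 (63.3% of all). The top site lay 4.26 kb from the probe of Gtf3c6, which encodes a subunit of the RNA polymerase III factor TFIIIC, at chr10:39947916-39948115 with an endogenous score of 129, H3K9/14ac and a CTCF peak of RAG1-/- cells. Next came sites near Tmem107 (score 91), near Rad51c, a gene of homologous recombination (2 sites, scores 90 and 88), and near Tex14 (score 88). The Rad51c and Tex14 sites lay in one short stretch of chromosome 11 (chr11:87239157-87259832), 30.9 to 42.1 kb from the probes. None of these had a 1 h E47-ER peak. The site near Mafk, which encodes a small Maf transcription factor (chr5:140029526-140029725, score 85), had H3K4me2, and the sites near Pecr and Lzts3 had H3K4me2 and H3K9/14ac. Sites near Cyb5r3 (score 87) and B4galt1 (score 80) had none of the 5 marks. None of the 10 had H3K4me3 (15.6% of all shared sites).

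The highest-scoring endogenous-only sites are given in the same way: 7 of 10 had H3K9/14ac (60.2% of all) and 4 had H3K4me3 (46.8% of all). An E2A peak in RAG1-/- cells was present at 7 (35.8% of all), and 1 each had a peak in the 1 h and A12 E47-ER lists (37.1% and 16.9% of all). The top site, nearest to the gene the array calls Punc (chr9:64994444-64994643, score 95), had H3K4me1, H3K4me2, H3K9/14ac and a CTCF peak of RAG1-/- cells, the source of all CTCF peaks here. The site near Arl4d, which encodes a small GTPase (chr11:101474452-101474651, score 73), had H3K9/14ac and CTCF. Sites 0.643 kb from the H1f2 probe (chr13:23746901-23747100, score 71) and 0.287 kb from the H1f1 probe (chr13:23771127-23771326, score 65), both linker histone genes, had H3K4me3 and H3K9/14ac. H3K4me3 was also present near Myo3a (score 70), where H3K27me3 was present too, and near Eea1 (score 59), which encodes an endosome protein. The site near Armh1 (score 71) had H3K4me2, H3K9/14ac, CTCF and a 1 h E47-ER peak. A second site nearest to Punc (score 56) had H3K4me2 and H3K9/14ac. A site near Tex14 (score 52), in the same part of chromosome 11 as the shared Tex14 site, had no mark. The site near H2-M10.4 (score 54) had H3K4me1, H3K27me3 and a mock peak.

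Over all sites, those found only with E47-ER had fewer marks in EBF-/- cells than those found only with endogenous E2A for H3K4me1, H3K4me2, H3K4me3 and H3K9/14ac, while H3K27me3 was too rare for a firm difference. A mark was counted where a mark region lay within 500 bp of the site's centre. H3K9/14ac was present at 1980 of 13173 E47-ER-only sites (15.03%, interval 14.4 to 15.7%), 755 of 2211 shared sites (34.1%, 32.2 to 36.2%) and 1395 of 2318 endogenous-only sites (60.2%, 58.2 to 62.2%). H3K4me3 was present at 1270 E47-ER-only (9.64%, 9.14 to 10.2%), 345 shared (15.6%, 14.1 to 17.2%) and 1084 endogenous-only sites (46.8%, 44.7 to 48.8%). The E47-ER-only share was therefore lower than the endogenous-only share by 45.2 percentage points for acetylation (difference -45.2, interval -47.2 to -43.1) and by 37.1 points for H3K4me3 (difference -37.1, interval -39.2 to -35.0). H3K4me2 separated the kinds differently, since shared sites had it about as often as endogenous-only sites: 23.9% of E47-ER-only, 54.1% of shared and 55.9% of endogenous-only sites (difference between the exclusive kinds -32.1 points, interval -34.2 to -29.9). H3K4me1, the least frequent of the lysine 4 marks in EBF-/- cells, was at 6.16%, 12.1% and 10.0%, with a difference of -3.85 points (-5.19 to -2.61). H3K27me3 was rare throughout, at 28 E47-ER-only sites (0.213%), 1 shared site (0.0452%) and 11 endogenous-only sites (0.475%). Its difference of -0.262 points (-0.641 to -0.0323) was -0.0544 points (-0.376 to 0.119) when peaks that overlapped a mock peak were left out.

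**Figure D2:**
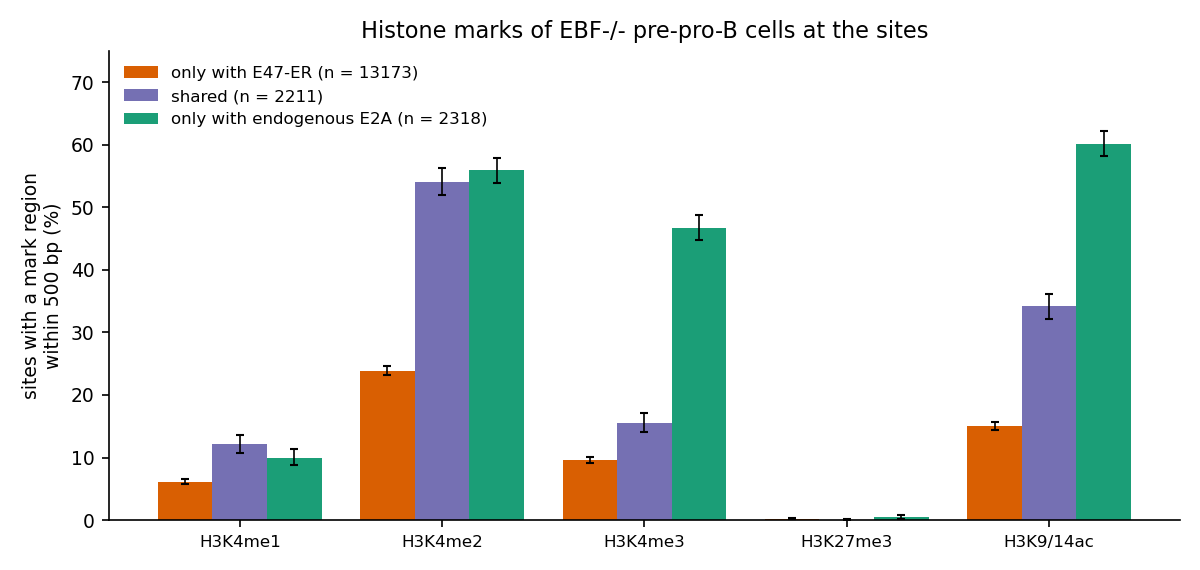
Share of sites (%, y axis) with a region of each of 5 histone marks of EBF-/- pre-pro-B cells within 500 bp of the site's centre, for sites found only with E47-ER, shared sites (endogenous peak) and sites found only with endogenous E2A. Bars are shares and whiskers 95% exact binomial intervals; H3K4me3 goes from 9.64% to 46.8% and H3K9/14ac from 15.03% to 60.2% between the exclusive kinds, while H3K4me2 is at 54.1% of shared and 55.9% of endogenous-only sites.

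In combination, 9285 E47-ER-only sites (70.5%, 69.7 to 71.3%) had none of the 5 marks, against 792 shared sites (35.8%, 33.8 to 37.9%) and 495 endogenous-only sites (21.4%, 19.7 to 23.1%). H3K4me3 together with H3K9/14ac was found at 44.9% of endogenous-only, 14.5% of shared and 8.96% of E47-ER-only sites. Shared sites led for H3K4me1 or H3K4me2 without H3K4me3, at 46.1%, against 29.7% of endogenous-only and 18.8% of E47-ER-only sites. Mark regions gathered at the sites: the 500 bp bin around the centre held 15.6 H3K4me3 region centres per 100 endogenous-only sites, 4.57 per 100 shared sites and 3.56 per 100 E47-ER-only sites. Around shared sites H3K4me3 had no central maximum, with 4.93 in the bin 500 bp to one side. For H3K4me2 the shared sites had the highest central bin, with 28.6 region centres per 100 sites, against 22.3 for endogenous-only and 10.6 for E47-ER-only sites. Seen from the mark regions, 1067 of 9064 H3K4me3 regions (11.8%) had an endogenous-only site within 500 bp of its centre and 1203 (13.3%) an E47-ER-only site, from a list several times longer.

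**Figure D3:**
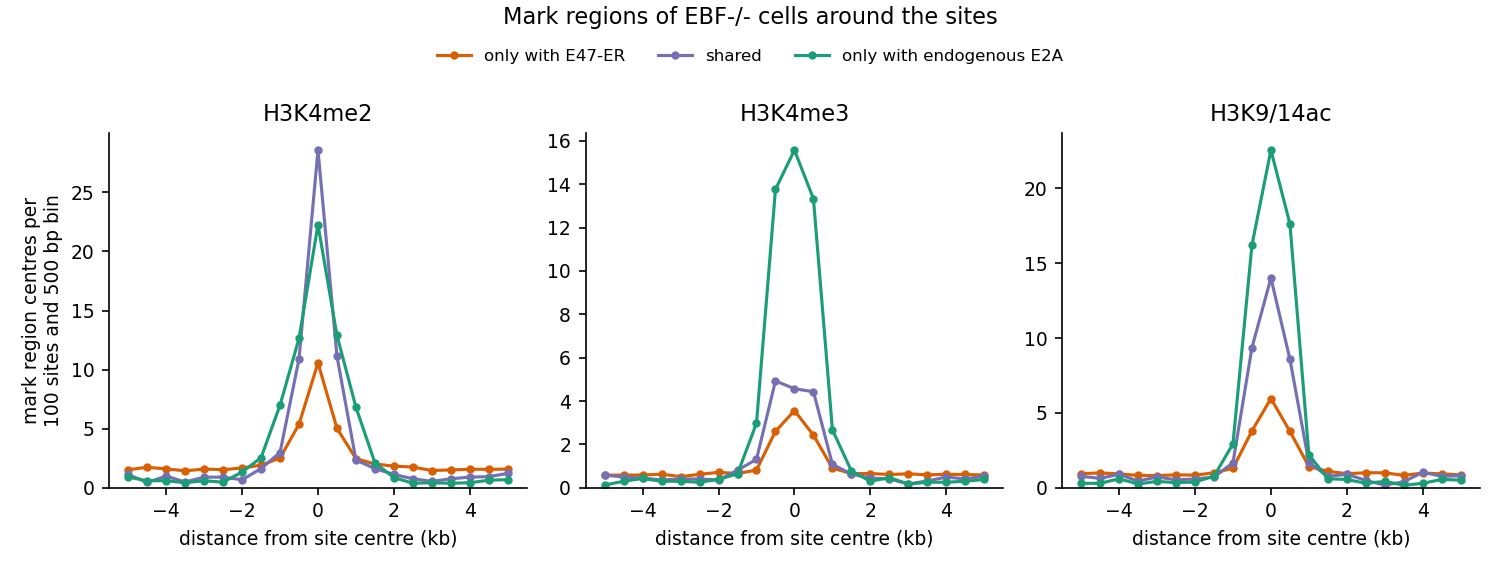
Number of mark region centres of EBF-/- cells per 100 sites in 500 bp bins (y axis) against the distance from the site's centre in kb (x axis), for H3K4me2, H3K4me3 and H3K9/14ac and the 3 kinds of site. Lines peak in the central bin except H3K4me3 at shared sites (4.93 beside 4.57 at the centre); endogenous-only sites have the highest central bins for H3K4me3 (15.6) and H3K9/14ac (22.6), and shared sites for H3K4me2 (28.6).

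No score band of E47-ER-only sites reached the H3K4me3 share of any band of endogenous-only sites. Among E47-ER-only sites the share with H3K4me3 was 11.2% (10.3 to 12.1%) at scores of 6 to 7 and 5.56% (2.70 to 9.98%) of the 180 sites at 30 or above. Among endogenous-only sites it was 49.3% (46.3 to 52.4%) at 11 to 12 and 40.6% (28.5 to 53.6%) of the 64 sites at 30 or above. H3K4me2 among endogenous-only sites went from 60.3% (57.2 to 63.3%) in the lowest band to 39.1% (27.1 to 52.1%) in the highest. The mock immunoprecipitation went the other way: its peaks were within 500 bp of 1.71% of endogenous-only sites in the lowest band and of 7 of 64 (10.9%, 4.51 to 21.3%) in the highest. In all, a mock peak was within 500 bp of 78 endogenous-only sites (3.36%), 15 shared sites (0.678%) and 26 E47-ER-only sites (0.197%). Endogenous-only sites with H3K4me3 had one less often (1.20%) than those without (5.27%), and with mock-overlapping peaks left out the H3K4me3 difference was -38.1 points.

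**Figure D4:**
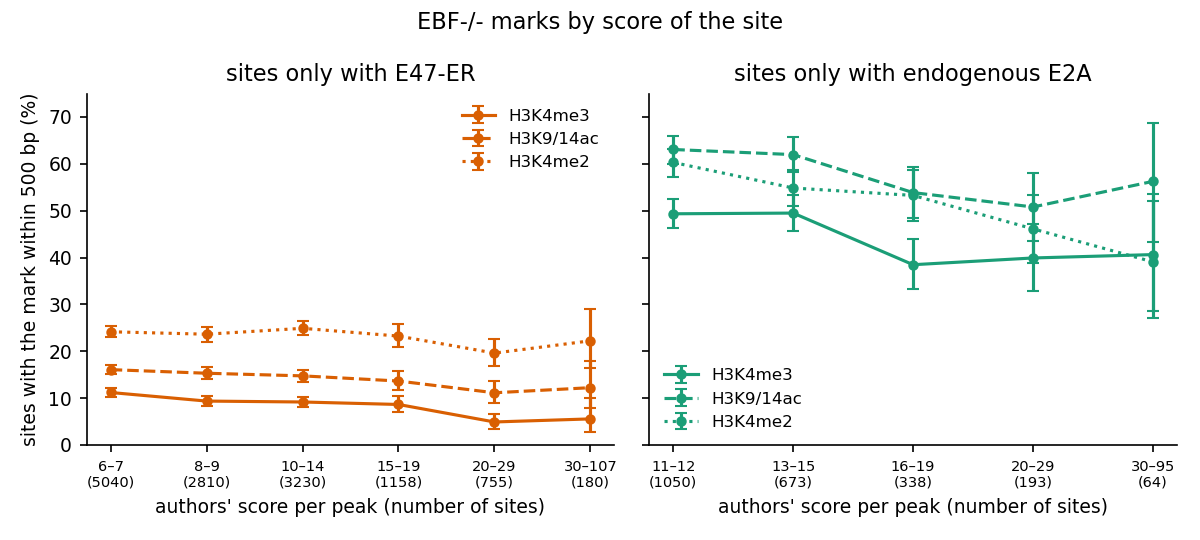
Share of sites (%, y axis) with H3K4me3, H3K9/14ac or H3K4me2 of EBF-/- cells within 500 bp, by the authors' score of the site (x axis, number of sites in brackets), for E47-ER-only (left) and endogenous-only sites (right). Points are shares and bars 95% exact binomial intervals; H3K4me3 is between 4.90% and 11.2% on the left and between 38.5% and 49.5% on the right.

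Sites on the sex chromosomes were few and differed between the lists. Chromosome Y held 26 endogenous and 0 E47-ER peaks, and all 26 were within 500 bp of a mock peak, of which 148 of 807 lay on that chromosome. No list from E2A-/- or A12 cells had a peak on chromosome Y, while the lists of EBF-/- cells had 1 to 26. On chromosome X the endogenous list had 59 peaks, of which 28.8% were shared, and 23 of its 42 endogenous-only sites (54.8%) had a mock peak within 500 bp. Without both chromosomes the shared part was 14.3% of the E47-ER list and 49.4% of the endogenous list. E47-ER sites were also more crowded than endogenous ones: 53.8% of E47-ER-only sites had another site of their list within 10 kb, against 16.95% of endogenous-only sites, in lists of unequal length.

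E47-ER-only sites recurred in both other E47-ER lists more often than in the list of endogenous E2A from RAG1-/- cells, the one endogenous list not used to define them. These lists differed in length, with 26792 peaks at 1 h, 17030 in A12 cells and 11846 in RAG1-/- cells. A 1 h E47-ER peak lay within 500 bp of 82.6% of E47-ER-only sites (81.9 to 83.2%), 95.5% of shared sites and 37.1% of endogenous-only sites (35.2 to 39.2%). For E47-ER in A12 cells the shares were 46.6%, 63.3% and 16.9%. The order of the exclusive kinds turned for endogenous E2A in RAG1-/- pro-B cells, with a peak at 15.99% of E47-ER-only sites (15.4 to 16.6%), 61.5% of shared sites (59.4 to 63.5%) and 35.8% of endogenous-only sites (33.8 to 37.8%). The differences between the exclusive kinds were 45.5 points for 1 h E47-ER (43.4 to 47.5), 29.7 points for A12 (27.9 to 31.4) and -19.8 points for RAG1-/- E2A (-21.8 to -17.7). EBF1, the B-lineage factor missing in EBF-/- cells, had a RAG1-/- peak at 1.21%, 3.30% and 4.06% of E47-ER-only, shared and endogenous-only sites. FOXO1, a factor that acts with E2A and EBF1 in early B cells, was at 1.35%, 6.97% and 4.57% in that order. CTCF in RAG1-/- cells, a protein that marks boundaries of chromatin domains, was at 9.97%, 12.0% and 14.5%.

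**Figure D5:**
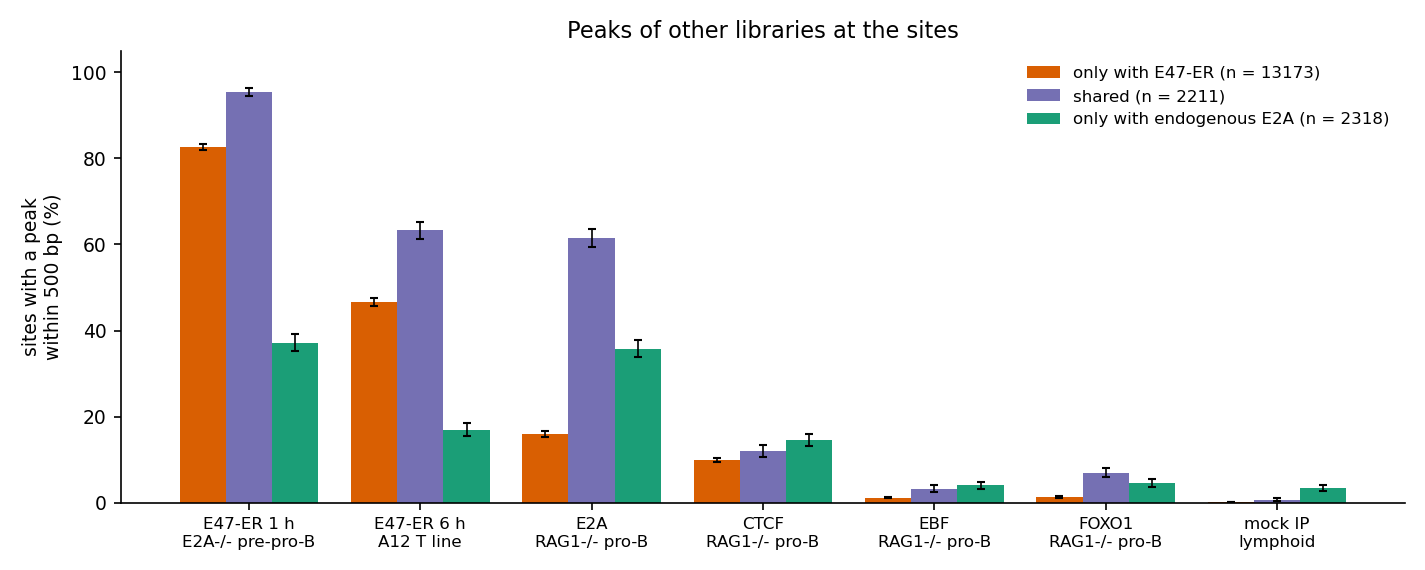
Share of sites (%, y axis) with a peak of another library within 500 bp of the site's centre, for E47-ER-only, shared and endogenous-only sites and 7 other peak lists (x axis). Bars are shares and whiskers 95% exact binomial intervals; the E47-ER lists are higher at E47-ER-only than at endogenous-only sites (82.6% against 37.1% at 1 h), and the RAG1-/- E2A list is lower (15.99% against 35.8%).

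Sites seen in a further library kept the contrast in marks. At 4296 E47-ER-only sites with peaks in all 3 E47-ER lists and none in RAG1-/- cells, H3K4me3 of EBF-/- cells was present at 10.5% (9.64 to 11.5%) and H3K9/14ac at 15.3%. At 389 endogenous-only sites with an E2A peak in RAG1-/- cells and none in the 1 h or A12 lists, H3K4me3 was present at 41.6% (36.7 to 46.7%) and H3K9/14ac at 56.8% (51.7 to 61.8%). Of these 389 sites, 32 (8.23%) had a mock peak within 500 bp. The 962 endogenous-only sites in no other E2A list (41.5% of the kind) had H3K4me3 at 53.95% (50.7 to 57.1%), and the 1542 E47-ER-only sites in no other E2A list (11.7%) had it at 9.40% (7.99 to 10.97%). Endogenous-only sites with H3K4me3 had a RAG1-/- E2A peak less often than those without, at 28.2% (25.6 to 31.0%) against 42.4% (39.6 to 45.2%), whereas E47-ER-only sites went the other way, at 26.1% (23.7 to 28.6%) against 14.9% (14.3 to 15.6%). E47-ER-only sites with an E2A peak in RAG1-/- cells had H3K4me2 in EBF-/- cells at 39.6% (37.5 to 41.7%) and those without at 20.9% (20.1 to 21.6%). Where a site had H3K4me3 in EBF-/- cells, it had it in RAG1-/- cells too at 94.3% of E47-ER-only and 94.7% of endogenous-only sites. CTCF peaks of RAG1-/- cells went with H3K4me3 of EBF-/- cells in both kinds, at 24.3% against 8.44% without H3K4me3 for E47-ER-only sites and at 22.0% against 7.94% for endogenous-only sites.

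The lower H3K4me1 share of E47-ER-only sites in EBF-/- cells had no counterpart of like size in E2A-/- cells, the cells in which the E47-ER sites were found. The H3K4me1 lists differed in length, with 7544 regions in EBF-/- cells and 11169 to 18155 in E2A-/- cells. With 6 h E47-ER, H3K4me1 was at 12.4% (11.8 to 12.9%) of E47-ER-only and 9.75% (8.57 to 11.03%) of endogenous-only sites, a difference of 2.61 points (1.22 to 3.89) that was -0.194 points when regions up to 2000 bp away were counted and -0.123 points with lists of equal length. With 1 h E47-ER the shares were 12.7% and 12.6%, and with bHLH-ER they were 11.5% and 12.1% (difference -0.591 points, interval -2.08 to 0.792). H3K4me1 present with 6 h E47-ER and absent with bHLH-ER was found at 7.35% (6.91 to 7.81%) of E47-ER-only, 6.42% (5.44 to 7.53%) of shared (E47-ER peak) and 4.36% (3.56 to 5.27%) of endogenous-only sites. The opposite, present with bHLH-ER and absent with 6 h E47-ER, was found at 6.52%, 9.63% and 6.73%, from a bHLH-ER list of 17146 regions against 11169 with 6 h E47-ER. H3K4me3, H3K4me2, H3K27me3 and H3K9/14ac of E2A-/- cells were not analysed here, so whether the E47-ER-only sites lacked them in their own cells is not known. In RAG1-/- pro-B cells the contrast was present too. There H3K4me1, from a longer list of 23054 regions, was at 14.4% of E47-ER-only and 26.4% of endogenous-only sites (difference -12.05 points, interval -13.97 to -10.19). In the same order, H3K4me2 was at 20.4% and 51.2%, H3K4me3 at 12.8% and 51.4%, and H3K9/14ac at 12.9% and 52.2%.

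E47-ER-only sites were the most frequent kind near listed B-lineage genes, as they were over all array genes with a position. Distances were taken to array probes, which mostly lie near the 3' end of a gene. Among 20766 array genes with a position, 49.0% had an E47-ER-only site within 50 kb, 16.3% a shared site and 19.6% an endogenous-only site, and 43.5% had no site. Of 15 B-lineage factor genes with a position, 11 had an E47-ER-only, 4 a shared and 4 an endogenous-only site. Spib, which encodes an Ets-family factor, had 9, 3 and 1. Its highest E47-ER-only site had a score of 31 and no mark, while its endogenous-only site (chr7:44364343-44364542, score 14) had H3K4me2, H3K4me3 and H3K9/14ac. The endogenous-only site near Ikzf1, which encodes Ikaros, had the same marks and a score of 14, at 49.1 kb from the probe. Ets1 had a shared site with H3K4me2 (chr9:32455673-32455872, score 37), and Ebf1, Pax5 and Pou2af1 had no site within 50 kb of their probes.

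For the pre-B receptor and its signalling, 8 of 14 genes had an E47-ER-only, 2 a shared and 3 an endogenous-only site. Over all array genes with a position the shares were 49.0%, 16.35% and 19.64% in that order. The highest endogenous-only site of this list lay 1.61 kb from the probe of Blk, a Src-family kinase gene, with a score of 40, H3K4me2, and peaks in the 1 h E47-ER and RAG1-/- E2A lists (chr14:62331461-62331660). Vpreb1 and Igll1, which encode the surrogate light chain, shared 1 endogenous-only site with H3K4me2, H3K4me3 and H3K9/14ac (chr16:16784297-16784496, score 11). Of 12 B cell surface genes, 9, 2 and 2 had sites of the 3 kinds. The top E47-ER-only site of Cd22, an inhibitory co-receptor gene, had a score of 21 and no mark. For recombination and end joining, 9 of 11 genes had an E47-ER-only, 4 a shared and 2 an endogenous-only site. Dntt, which encodes terminal transferase, had an endogenous-only site 2.76 kb from its probe with H3K4me2 and an E2A peak in RAG1-/- cells (chr19:41092529-41092728, score 20). Xrcc6, which encodes Ku70, had a shared site with a score of 69 and no mark (chr15:81855094-81855293). Rag1 and Rag2 each had 3 E47-ER-only sites, the highest of which (score 11) was common to both.

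Genes of other lineages had sites of all 3 kinds as well. Over all array genes with a position, 49.0% had an E47-ER-only, 16.35% a shared and 19.64% an endogenous-only site within 50 kb. Of 16 T-lineage genes, 13 had an E47-ER-only, 7 a shared and 3 an endogenous-only site. Tcf7, which encodes TCF-1, had an endogenous-only site with H3K4me2, H3K4me3, H3K9/14ac and a RAG1-/- E2A peak (chr11:52075404-52075603, score 19). Ptcra, which encodes the pre-T receptor alpha chain, had 5 E47-ER-only, 1 shared and 2 endogenous-only sites, and both of the latter had H3K4me3 while its highest E47-ER-only site (score 30) had no mark. Of 12 NK and cytotoxic genes, 6, 4 and 4 had sites of the 3 kinds, and Il2rb, a cytokine receptor gene, had 7 E47-ER-only and 4 shared sites. Of 12 progenitor genes the counts were 8, 3 and 3. Flt3 had a shared site (score 26) and an endogenous-only site (chr5:147651419-147651618, score 27), both with H3K4me2 and H3K9/14ac, and an E47-ER-only site without marks (score 16). Of 12 myeloid genes the counts were 9, 3 and 4, and of 10 stromal genes 2, 1 and 1.

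E proteins, Id proteins and Notch targets were among the lists with most shared sites, with 13 of 15 genes near an E47-ER-only, 9 near a shared and 6 near an endogenous-only site. The shares over all array genes with a position were 49.0%, 16.35% and 19.64% in that order. Id3, which encodes an inhibitor of E proteins, had 8 E47-ER-only, 2 shared and 2 endogenous-only sites. Its strongest endogenous-only peak (chr4:135449287-135449486, score 45) lay beside its strongest shared peak (chr4:135449859-135450058, score 57), and neither had a mark in EBF-/- cells. FOXO and IL-7 receptor targets had E47-ER-only sites at 10, shared sites at 9 and endogenous-only sites at 6 of 13 genes. Socs3, a feedback inhibitor of cytokine signalling, had 13 E47-ER-only and 3 shared sites. Its highest shared site had H3K4me2 (chr11:117768334-117768533, score 78), and its highest E47-ER-only site had H3K4me3 and H3K9/14ac (score 32). Klf2, which encodes a factor of lymphocyte trafficking, had an endogenous-only site 0.793 kb from its probe with H3K4me3 and H3K9/14ac (chr8:75247988-75248187, score 25). Bcl2l11, which encodes the pro-apoptotic protein Bim, had an E47-ER-only site with a score of 43 and no mark (chr2:127847574-127847773). Of 12 cell cycle genes the counts were 7, 3 and 6. Ccnd2, which encodes cyclin D2, had an endogenous-only site 2.30 kb from its probe with H3K4me3 (chr6:127116523-127116722, score 25), and Mycn had 2 endogenous-only sites without marks and no site of the other kinds. E2f1 had an E47-ER-only site with a score of 29 and no mark.

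RNA of untreated E2A-/- and EBF-/- cells, 2 samples each, was set beside the sites. It shows how the host cells differed, not what E47-ER did. With limma and a Benjamini-Hochberg adjusted p under 0.05, 24.2% of the 12690 genes tested were called, 12.5% higher and 11.6% lower in EBF-/- cells. Near E47-ER-only sites 1779 of 7517 tested genes were called (23.7%), near shared sites 642 of 2529 (25.4%) and near endogenous-only sites 754 of 3077 (24.5%), all close to the background. A gene could be near several kinds of site, so these groups overlap. Of 3832 genes near E47-ER-only sites alone 23.25% were called, and of 690 near endogenous-only sites alone 24.49%. Genes higher in EBF-/- cells were 12.4%, 15.03% and 13.2% of the genes near E47-ER-only, shared and endogenous-only sites, and genes lower were 11.2%, 10.4% and 11.3%. Median log2 differences were 0.00055, 0.057 and 0.011, against -0.0092 over all genes tested. Genes near an endogenous-only site with H3K4me3 were called in 22.6% of 2151 cases and those near one without in 27.02% of 1214. These counts rested on each sample: near E47-ER-only sites there were 661 and 660 calls without E2A-/- replicate 1 or 2, 259 and 185 without EBF-/- replicate 1 or 2, and 3226 and 3236 without RAG1-/- replicate 1 or 2, which only lend their spread. The share over all genes moved alike, to 10.03%, 9.85%, 3.96%, 3.09%, 42.3% and 42.3% in that order.

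Among the genes nearest to the 10 highest sites of each kind, 0 of 8 tested were called for E47-ER-only sites (24.2% of all genes were), 3 of 8 for shared sites and 2 of 3 for endogenous-only sites. At an unadjusted limma p under 0.05, 1 of 8, 6 of 8 and 2 of 3 passed in that order, against 38.5% of all genes tested. Pecr, which encodes a peroxisomal reductase, had log2 intensities of 5.37 and 5.42 in E2A-/-, where only the first was well above background, and 9.55 and 9.65 in EBF-/- cells, a log2 difference of 4.22 ± 0.25 (SE, limma adjusted p = 0.0026). The samples of the groups did not overlap. B4galt1 and Cyb5r3 were higher in EBF-/- cells by 0.90 ± 0.14 and 0.66 ± 0.12 (limma adjusted p = 0.017 and 0.024). The neighbouring linker histone genes went opposite ways: H1f1 was at 9.69 and 9.57 against 11 and 11.07 in EBF-/- cells (log2 difference 1.40 ± 0.11, limma adjusted p = 0.0040), and H1f2 at 12.39 and 12.59 against 11.15 and 11.09 (-1.37 ± 0.24, limma adjusted p = 0.021).

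The host cells differed in some genes of several lineages, while other genes of the same lists were not called. Over all genes tested, 12.5% were called higher and 11.6% lower in EBF-/- cells. Of 11 T-lineage genes tested, 6 were higher and 1 lower in EBF-/- cells (median log2 difference 1.83), and of 10 NK and cytotoxic genes 5 were higher and 0 lower (median 1.94), with 0 lower at an unadjusted limma p under 0.05 too. Of 10 myeloid genes, 1 was higher and 3 lower (median -1.03). Lck, a T cell kinase gene with a shared site that had H3K4me3, was at 9.81 and 9.90 against 13.98 and 13.79 (log2 difference 4.03 ± 0.11, limma adjusted p = 0.0018). Tcf7 was at 3.00 and 3.86 against 9.24 and 9.19 (limma adjusted p = 0.0035), its brighter probe not well above background in either E2A-/- sample, so that level is only a bound. Another Tcf7 probe was well above background in E2A-/- cells. Il2rb was higher by 4.18 ± 0.68 (limma adjusted p = 0.018). Csf1r, the receptor gene for macrophage colony-stimulating factor, was at 12.04 and 12.24 in E2A-/- and 7.92 and 4.99 in EBF-/- cells, the latter not well above background (-5.71 ± 0.84, limma adjusted p = 0.014), and Cd68 was lower by 3.48 (log2 difference -3.48 ± 0.29, limma adjusted p = 0.0041). Of 10 stromal genes only 2 passed the filter on dim probes, and of these Pdgfrb was at 7.73 and 8.07 against 12.96 and 12.75 in EBF-/- cells (4.96 ± 0.18, limma adjusted p = 0.0019), and Col1a2, which did not pass the test, at 7.61 and 7.07 against 6.30 and 7.35 (-0.50 ± 0.51, limma adjusted p = 0.54), well above background in 1 of 2 samples of each group. All probes of Pdgfra, Dcn and Col3a1 were not well above background in the 4 samples. Col1a1, Vcam1, Cxcl12, Lum and Thbs1 did not pass the filter either, and their levels are not described here. The part of other cell types in the peak lists was not tested.

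Of the B-lineage factors, 4 of 15 tested were higher and 0 lower in EBF-/- cells (median 0.58), against 12.5% and 11.6% of all genes. At an unadjusted limma p under 0.05 the counts were 4 and 2. Among those called were Ets1 (2.75 ± 0.49, limma adjusted p = 0.022) and Ebf1 (4.71 ± 0.49, limma adjusted p = 0.0063, with 1 of 2 E2A-/- samples not well above background). Ebf1 is the gene disrupted in EBF-/- cells, and whether its probes lie in the deleted part is not known. Its other probe was not well above background in any E2A-/- or EBF-/- sample. For the pre-B receptor list 1 of 13 was higher and 2 lower (1 and 5 unadjusted, median -1.31), and for B cell surface genes 0 of 10 higher and 1 lower (3 and 1 unadjusted). E2A-/- replicate 1 exceeded replicate 2 by more than 1 on the log2 scale for 9 of the 15 B-lineage factors, 8 of these 13 pre-B receptor genes and 6 of these 10 surface genes. The count was 3 of 14 for E proteins, Id proteins and Notch targets, and 1 of 11 each for recombination and progenitor genes. It was 0 for the T-lineage, NK and cytotoxic, cell cycle, FOXO and IL-7 receptor, myeloid and stromal lists. The share over all genes tested was not counted, and the part of this in the calls was not tested. Of 11 recombination genes 4 were higher and 2 lower, with Dntt at 9.01 and 8.39 against 12.60 and 12.51 (3.87 ± 0.31, limma adjusted p = 0.0039) and Xrcc6 higher by 0.67 ± 0.10 (limma adjusted p = 0.013). Of 11 progenitor genes 2 were higher and 3 lower, with Flt3 at -0.92 ± 0.11 (limma adjusted p = 0.0080) and Hoxa9 at 1.43 ± 0.11 (limma adjusted p = 0.0035). Of 14 genes of E proteins, Id proteins and Notch targets 5 were higher and 2 lower. The 5 included Tcf3, the gene disrupted in E2A-/- cells. They also included Nrarp, all probes of which were not well above background in both genotypes. Of 13 FOXO and IL-7 receptor targets 2 were higher and 1 lower, together near the 24.2% called over all genes tested. Of 12 cell cycle genes 1 was higher and 4 lower: Mycn was at 12.29 and 11.94 against 14.33 and 13.90 (1.99 ± 0.15, limma adjusted p = 0.0036), Ccnd2 at 15.77 and 15.90 against 14.53 and 14.34 (-1.40 ± 0.11, limma adjusted p = 0.0036), and Cdkn1a, which encodes the cell cycle inhibitor p21, at 13.03 and 13.14 against 11.61 and 11.60 (-1.48 ± 0.09, limma adjusted p = 0.0028).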

How the data were processed

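Peak lists were called by the authors with HOMER on build mm8, per the submitters' processing notes; the deposited score per peak has no stated meaning, and input, thresholds and depth are not given in the sources used here. Array intensity values were deposited as background-corrected processed signals of Agilent Feature Extraction (version 9.5.3.1 per the file headers). Overlaps were computed in Python 3.11.15 (pandas 2.3.3): shared means at least 1 bp in common, a mark or peak is present within 500 bp of a site's centre, and a gene within 50 kb of its array probe in mm8. As no mm8 gene models were used, peaks within 5 kb of Tcf3 exons were left out through a wider window, chr10:79786971-79842459, that must hold all its exons. Log2 intensities of the 6 RNA channels were quantile normalized, probes not well above background in both samples of any group were dropped, the brightest probe stood for a gene, and limma 3.58.1 (R 4.3.3) fitted group and dye with array as a random block and Benjamini-Hochberg adjustment. The labels do not say whether the 2 samples of a group came from separate animals, so p-values measure the spread between these samples. The text names the 10 highest-scoring sites of each kind near an array gene and examples from 12 gene lists (153 genes). The members and lists were chosen with earlier results of these data known. Alternatives covered the overlap and mark windows, peak thresholds, mock peaks, normalization, background, dim probes, dye, replicates and gene distance. Overlap and limma steps were tested on simulated data.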

Additional observations from a re-analysis of the deposited data

How the results depend on the processing

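The differences for H3K4me1, H3K4me2, H3K4me3 and H3K9/14ac in EBF-/- cells kept their sign under every alternative run; for H3K27me3 the interval included 0 in 4 of 8, with mock peaks left out, equal list lengths, regions within 2000 bp and sites in a second library. The shared part of the E47-ER list was 13.3% with centres within 100 bp, 16.9% within 1000 bp and 28.4% with lists of equal length, and that of the endogenous list 45.2%, 54.5% and 28.4%. Counting only mark regions that overlap the peak itself gave differences of -1.71 points for H3K4me1, -21.7 for H3K4me2, -31.5 for H3K4me3 and -40.7 for H3K9/14ac. Only the better-scoring peaks (at or above the median score) of both E2A lists gave -26.7, -28.9 and -38.3 for H3K4me2, H3K4me3 and H3K9/14ac, and the better-scoring mark regions -28.5, -26.7 and -36.9. Alternatives chosen after seeing the data gave -32.2 and -41.8 for H3K4me3 and H3K9/14ac with lists of equal length, and -27.3 and -39.8 for sites seen in a second library. H3K4me1 in E2A-/- cells with E47-ER turned to -0.194 and -0.123 points, as given above; the cause was not tested. Counts of called genes near E47-ER-only, endogenous-only and shared sites were 261, 106 and 108 without between-array normalization, where 4.53% of all genes were called and the median over all genes was -0.28, and 1110, 479 and 401 with no filter on dim probes, where 9.28% were. Within 20 kb, 1191 of 5009, 389 of 1621 and 304 of 1209 genes were called, and within 100 kb 2215 of 9192, 1182 of 4823 and 1020 of 4095, all near the 24.2% of all genes. Leaving out 1 sample gave 185 to 3236, 84 to 1372 and 84 to 1129; a lone sample is then assumed to vary like the other groups. Of 21 named genes called, 10 to 21 stayed called, and the difference of Col1a2, not called, ran from -1.35 without EBF-/- replicate 2 to 0.32 without replicate 1. With the replicate number as a block in place of the dye term the counts were 1741, 726 and 651; the deviations of same-numbered E2A-/- and EBF-/- samples correlated at -0.41, and the crossed replicate block gave 1589, 674 and 611. Peak lists of 1 library with unknown depth limit all shares.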
